A study of Arabidopsis thaliana with 18 samples.

Results

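Aquaporins are channel proteins that carry water, and in some cases small uncharged solutes, across plant membranes. The family in Arabidopsis thaliana was taken as 35 genes by a fixed list of gene identifiers, 35 of the 27587 genes measured. The list goes by family and not by level, but it was chosen with earlier results of these data known. Names are written with a hyphen, as in UniProt (TIP3-1). The family comprised 10 tonoplast intrinsic proteins (TIPs), 13 plasma membrane intrinsic proteins (PIPs), 9 NOD26-like intrinsic proteins (NIPs) and 3 small basic intrinsic proteins (SIPs). The study sampled seeds of Col-0, the reference accession, and of ros1-4, a homozygous T-DNA insertion line in the Col-0 background for ROS1, a DNA glycosylase that removes methylated cytosines from DNA. RNA was extracted from lots of at least 100 whole seeds produced at 23 °C, the control temperature of the study. Each genotype was collected dry at maturity and during germination, at stages II and IV, with 3 biological replicates in each of the 6 groups. At stage II the seed coat had ruptured and the radicle tip was visible, and at stage IV the radicle had extended. All libraries are bulk samples of embryo, endosperm and seed coat together, so fewer cells of a type and less RNA per cell cannot be told apart, and a single insertion allele stands for the genotype.

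The deposited table gave estimated counts per transcript, which were summed to genes, with 18737837 to 20787603 counts per library. Levels are given as CPM, counts per 1000000 after scaling by the trimmed mean of M values (TMM), and, where genes are compared with each other, as CPM per kb of effective transcript length. ROS1 checks the labels: it stood at 198 to 206 CPM in the mature Col-0 libraries and at 124 to 145 CPM in those labelled ros1-4, but at stages II and IV at 10.2 to 12.6 CPM in Col-0 and 42.8 to 49.7 CPM in the ros1-4-labelled libraries. A total per gene does not tell on which side of an insertion the reads lie, and since the germinating libraries go against a loss of the transcript, they are named by their label here, as ros1-4-labelled libraries. In the third Col-0 library at stage II the root hair markers summed to 26.0 CPM against 14.9 and 14.6 CPM in the other Col-0 libraries of that stage. Since 3 of these 5 markers were chosen for standing high in 1 library, their sum is not independent evidence that a library stands apart. TIP1-1, TIP1-2, TIP2-1, TIP4-1 and NIP5-1 were also highest in it, so results that rest on it are also given without it.

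TIPs lie in the vacuolar membrane, PIPs in the plasma membrane, NIPs in the plasma membrane and the endoplasmic reticulum, and SIPs in the endoplasmic reticulum. TIP3 proteins mark the protein storage vacuoles of the maturing embryo, while TIP1, TIP2 and TIP4 proteins belong to the vacuoles of vegetative and elongating cells. PIPs set the water permeability of the plasma membrane, with PIP2 proteins forming active water channels in frog oocytes and PIP1 proteins often needing a PIP2 partner to reach the membrane, and NIP5-1 is a boric acid channel of roots.

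The dry seed held mostly transcripts of the TIP3 pair and the germinating seed mostly those of PIPs, while PIP1-2 was among the leading members at every stage. In mature Col-0 seeds TIP3-2 (AT1G17810) and TIP3-1 (AT1G73190) stood at 4755 ± 67.5 and 4435 ± 107 CPM per kb (SD, n = 3), and the next member by level, PIP1-2 (AT2G45960), at 331 ± 5.46 CPM per kb. The gap from the pair to PIP1-2 was far wider than the spread between replicates. TIP3-2 was above TIP3-1 in every mature Col-0 library, and in the mature seeds labelled ros1-4 the order was reversed, at 5794 ± 110 and 6025 ± 96.6 CPM per kb, again without overlap of their ranges. The pair made up 93.5 ± 0.13% of the summed level per kb of the family in mature Col-0 seeds and 95.6 ± 0.26% in the mature seeds labelled ros1-4. At stage II the pair had dropped to 0.096 ± 0.027% of the family in Col-0 and 1.23 ± 0.52% in the ros1-4-labelled libraries, and PIPs made up 82.1 ± 2.3% and 69.7 ± 0.26%. TIPs other than the TIP3 pair then came up, and all TIPs together held 20.7 ± 4.7% of the family in Col-0 and 27.6 ± 1.7% in the ros1-4-labelled libraries at stage IV.

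**Figure D1:**
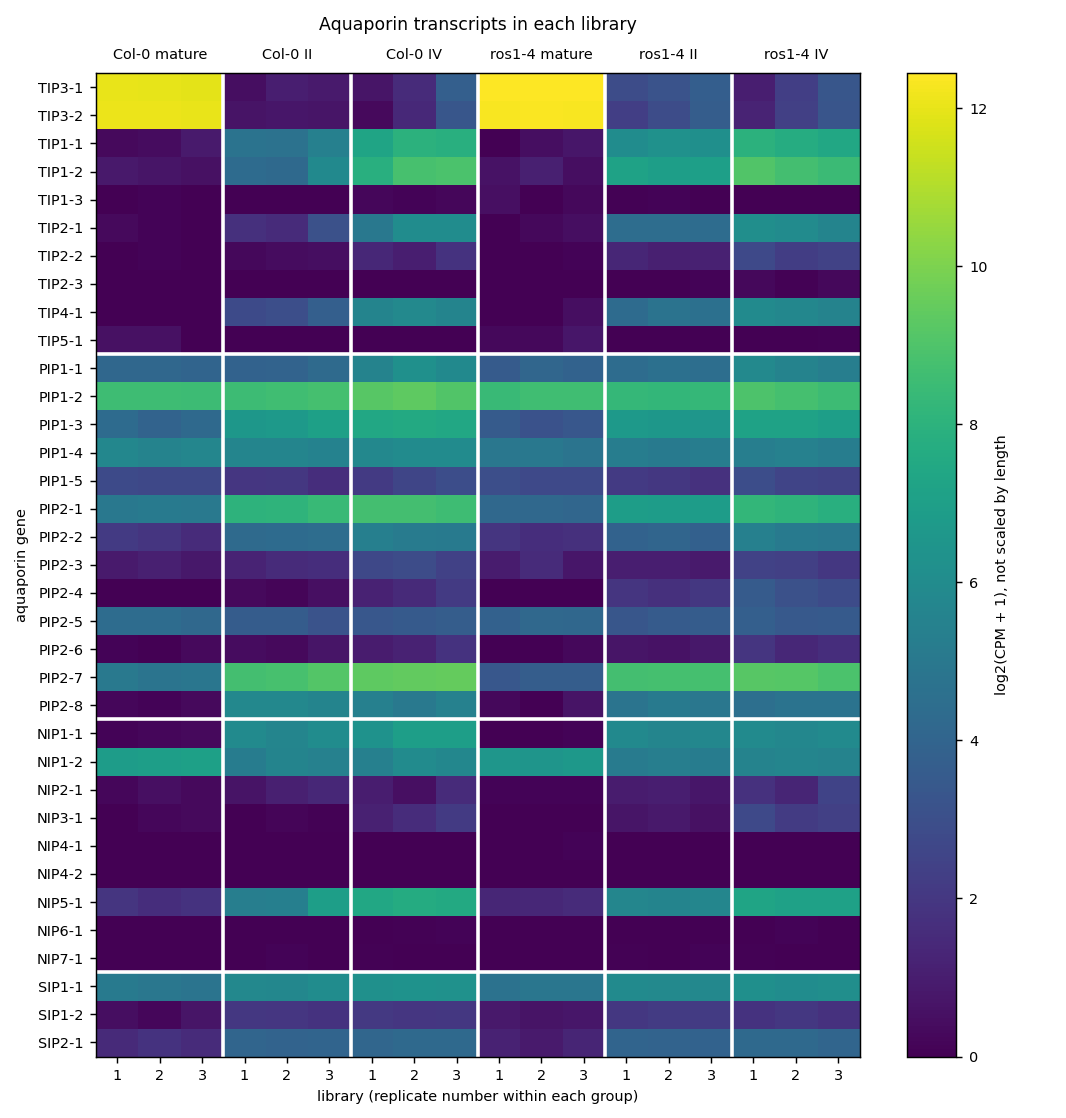
Level of all 35 aquaporin genes in the 18 libraries, as log2(CPM + 1) on a colour scale, with genes in rows by subfamily (TIP, PIP, NIP, SIP) and libraries in columns by group. The TIP3 pair is bright in the 6 mature libraries and dark in the others, while PIP2-7, PIP2-1 and the vegetative TIPs show the opposite pattern.

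The summed level of the family fell with the TIP3 pair between the dry seed and stage II and rose at stage IV through other members. It was 9989, 9833 and 9658 CPM per kb in the mature Col-0 libraries, 1464, 1536 and 1879 at stage II, and 2659, 3188 and 3062 at stage IV. In the ros1-4-labelled libraries it was 12270, 12410 and 12390 CPM per kb in mature seeds, 1452, 1454 and 1470 at stage II, and 2717, 2429 and 2142 at stage IV. No library of a stage overlapped with another stage of its genotype, and the sums of the genotypes did not overlap in mature seeds but did at stages II and IV. Without the TIP3 pair the sum rose at both steps. Its means were then 637, 1625 and 2960 CPM per kb in Col-0 and 541, 1441 and 2419 in the ros1-4-labelled libraries. The size of these sums depends on the scaling, since TMM factors were 0.511 to 0.671 in mature and 1.27 to 1.35 in germinating libraries: with library size alone the Col-0 means were 6484, 2100 and 3790 CPM per kb and those labelled ros1-4 were 6549, 1964 and 3133 CPM per kb, so that the mature genotypes no longer stood apart.

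**Figure D2:**
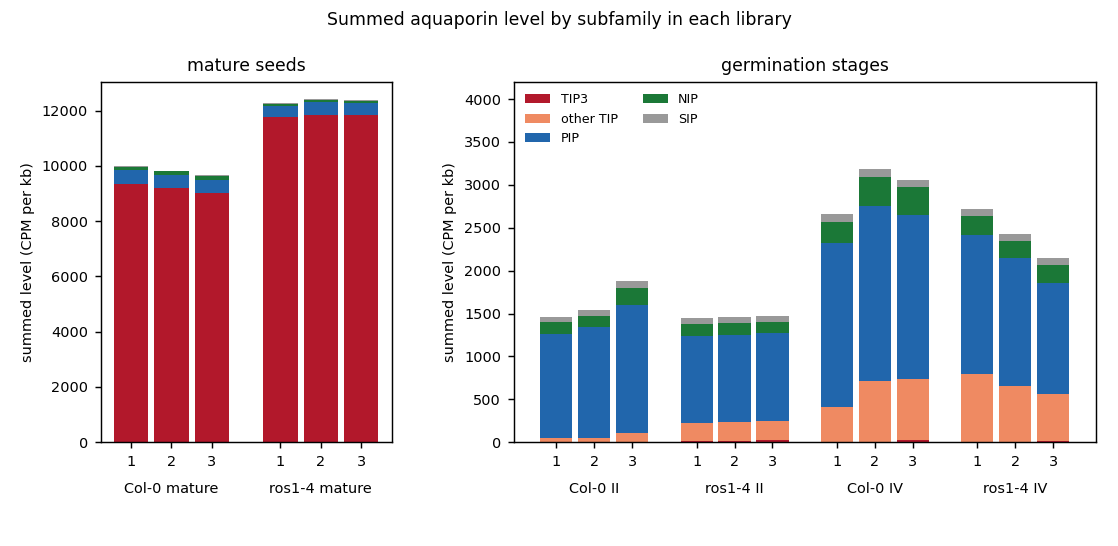
Summed aquaporin level in CPM per kb for each library, stacked by TIP3 pair, other TIPs, PIPs, NIPs and SIPs, with mature seeds on the left and the germination stages on the right on a separate axis, and both axes start at 0. The TIP3 pair fills nearly all of the bar in mature seeds, PIPs lead at stages II and IV, and the other TIPs are a larger part in the ros1-4-labelled libraries at stage II than in Col-0.

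Of the 35 genes, 7 had so few counts that they passed the filter on low counts in no comparison, and 28 had a mean of at least 1 CPM in some group of each genotype. Of these 28, 21 were highest at stage IV in Col-0, 5 in mature seeds and 2 at stage II, and the numbers in the ros1-4-labelled libraries were the same. From mature seeds to stage II in Col-0, 24 members were tested, of which 16 rose and 5 fell at an adjusted p-value under 0.05 in the edgeR quasi-likelihood test. Over all genes, 88.3% of those tested were called in that comparison, 47.3% up and 41% down, so that the share of called members lay near the background. The median log2 change of the tested members was 2.73 against 0.17 for all genes, but 7 of the 16 that rose had at most 10 counts in every mature library and passed the filter on low counts through stage II, which largely set their direction. In the ros1-4-labelled libraries, 21 of 28 tested members rose and 6 fell over the same step, where 89.7% of all genes were called, 50.3% up and 39.3% down, and 11 of the 21 had at most 10 counts in every mature library. With library size alone in place of TMM the median change of all genes moved from 0.17 to 1.14 in Col-0 and from 0.33 to 1.68 in the ros1-4-labelled libraries, and the members split into 19 up and 3 down and into 24 up and 2 down.

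From stage II to stage IV, 20 of the 28 tested members rose and 1 fell in Col-0, against 38.7% of all genes called, 21.8% up and 16.8% down. The same numbers, 20 up and 1 down of 28, came from the ros1-4-labelled libraries, against 39.9% of all genes called, 20.7% up and 19.2% down. Upward calls of the members were thus more frequent than among all genes in both genotypes at this step, although 3 of the 20 in Col-0 (TIP2-2, PIP2-4 and NIP3-1) had at most 10 counts in every stage II library. The median log2 change of the members was 0.92 in Col-0 and 0.96 in the ros1-4-labelled libraries, and that of all genes was -0.01 in both. The comparison of stage II with mature seeds and that of stage IV with stage II share the stage II libraries and are given side by side only.

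TIP3-1 and TIP3-2 are the aquaporins of protein storage vacuoles, and the pair lies on chromosome 1 in the TAIR10.1 assembly. Each gene overlaps a gene on the opposite strand, AT1G73200 for TIP3-1 and AT1G17820 for TIP3-2, and whether counting used strand is not given in the sources used here. Those partners had at least 287 and 81 counts in every library, and low TIP3 values are uncertain for that reason. TIP3-1 stood at 4133, 4008 and 3941 CPM in mature Col-0 seeds and at 5455, 5393 and 5566 CPM in the mature seeds labelled ros1-4. Its counts at stage II were 9, 25 and 22 in Col-0 against 181, 226 and 344 in the ros1-4-labelled libraries. TIP3-2 stood at 4327, 4320 and 4218 CPM in mature Col-0 seeds and at 5202, 5335 and 5141 CPM in those labelled ros1-4. Its counts at stage II were 15, 17 and 16 in Col-0 against 110, 177 and 328 in the ros1-4-labelled libraries. Mature and stage II libraries were separated by far more than the spread of either, and at both stages the genotypes did not overlap.

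The sequences just upstream of both genes are shown because the pair moved together through all 6 groups. They are the 250 bases before the annotated start, read 5′ to 3′ from the RefSeq genome, build TAIR10.1, plus strand, chr1:27521694-27521943 for TIP3-1 and chr1:6129775-6130024 for TIP3-2. Capitals mark CATGCA, the core of the RY element bound by seed B3 factors such as ABI3 and FUS3, and ACGTG, the core of elements bound by bZIP factors such as ABI5, each searched on both strands.
TIP3-1: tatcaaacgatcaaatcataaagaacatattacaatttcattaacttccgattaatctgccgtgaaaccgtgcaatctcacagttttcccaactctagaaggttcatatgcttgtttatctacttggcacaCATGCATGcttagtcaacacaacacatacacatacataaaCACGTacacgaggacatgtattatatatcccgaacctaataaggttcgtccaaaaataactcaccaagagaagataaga
TIP3-2: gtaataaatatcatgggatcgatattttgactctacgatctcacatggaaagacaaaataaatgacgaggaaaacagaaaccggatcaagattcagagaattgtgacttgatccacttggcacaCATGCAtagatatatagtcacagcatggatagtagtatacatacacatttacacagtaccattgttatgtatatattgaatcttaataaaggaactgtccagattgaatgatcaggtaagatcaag
TIP3-1 held CATGCA on both strands at overlapping positions -119 and -117 from the start and ACGTG, on the minus strand, at -79, and TIP3-2 held CATGCA at -126 and no ACGTG in this window. The windows shared a run of 17 bases, acttggcacaCATGCAt, which began at -129 in TIP3-1 and at -136 in TIP3-2 and which these 2 alone held among 27443 gene promoters of this length. The run was picked as the longest that both hold, so its rarity among them carries no weight. CATGCA was present in 8.43%, ACGTG in 22.9% and both in 2.22% of those promoters. Among the other 33 aquaporin genes CATGCA was found for TIP1-2, PIP1-1, PIP1-5, PIP2-4, PIP2-7, PIP2-8, NIP1-1 and NIP6-1, and ACGTG for TIP1-1, TIP5-1 and SIP1-1. A match is a description of the letters and was not tested as a binding site.

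From mature seeds to stage II the level of TIP3-1 fell 5298-fold in Col-0 and 611-fold in the ros1-4-labelled libraries, as ratios of mean CPM, and that of TIP3-2 fell 6612-fold and 712-fold. These sizes depend on the scaling and were smaller as shares of all counts. By share TIP3-1 went from 0.266% to 9.78e-05% in Col-0 and from 0.290% to 0.00121% in the ros1-4-labelled libraries. TIP3-2 went from 0.283% to 8.37e-05% and from 0.277% to 0.000987%. The log2 changes of TIP3-1 were -12.37 ± 0.29 (SE, edgeR adjusted p = 6.67e-10) and -9.27 ± 0.21 (adjusted p = 2.19e-14), and those of TIP3-2 were -12.68 ± 0.18 (adjusted p = 1.28e-10) and -9.49 ± 0.30 (adjusted p = 5.04e-13). The fall was thus smaller in the ros1-4-labelled libraries, with an interaction of genotype and stage of 3.08 ± 0.36 for TIP3-1 (edgeR adjusted p = 4.1e-05) and 3.17 ± 0.45 for TIP3-2 (adjusted p = 0.000221). At stage II itself the ros1-4-labelled libraries were higher by 3.56 ± 0.36 for TIP3-1 (edgeR adjusted p = 0.000609) and 3.49 ± 0.45 for TIP3-2 (adjusted p = 0.00165) on the log2 scale. Without the third Col-0 library at stage II these differences were 3.69 and 3.49. The seed storage markers OLEO1, CRA1, SESA1, EM1 and EM6 summed to 115 to 193 CPM in the Col-0 and 801 to 1159 CPM in the ros1-4-labelled libraries of stage II. No marker was at 0, and 3 of the 5 were called higher, where 11.4% of all genes were called up. Their median log2 difference was 0.85, so the sum does not stand for each marker. In the interaction from mature seeds to stage II, 2 of the 5 were up and 1 down, with a median of -0.35. Over all genes 10.4% were called up and 9.24% down in it. The part of these markers in the TIP3 difference was not tested.

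At stage IV the pair was low in both genotypes and varied widely between replicates. TIP3-1 had 16, 48 and 310 counts in Col-0 against 29, 105 and 241 in the ros1-4-labelled libraries, and TIP3-2 had 6, 43 and 218 and 36, 110 and 231. The genotypes overlapped fully, with log2 differences of -0.12 ± 0.98 for TIP3-1 (edgeR adjusted p = 0.955) and 0.38 ± 0.96 for TIP3-2 (adjusted p = 0.839). The seed storage markers summed to 66.9, 143 and 265 CPM in the same Col-0 libraries and to 133, 398 and 391 CPM in those labelled ros1-4, and their part in the spread was not tested. In mature seeds the pair was higher in the ros1-4-labelled libraries by 0.46 ± 0.07 for TIP3-1 (edgeR adjusted p = 0.000153) and 0.31 ± 0.07 for TIP3-2 (adjusted p = 0.00468) on the log2 scale, with no overlap. The difference depends on the scaling, since with library size alone it was 0.12 (edgeR adjusted p = 0.125) and -0.03 (adjusted p = 0.713). In a single fit of all 18 libraries its size was close to the first, at 0.44 and 0.29, and the call was lost (edgeR adjusted p = 0.666 and 0.799). The 5 seed storage markers summed to 118600 to 123600 CPM in mature Col-0 seeds and 159600 to 174500 CPM in those labelled ros1-4. None was at 0, and 4 of 5 were called higher, with a median log2 difference of 0.71. Over all genes 26.8% were called between mature genotypes, 13.8% up. The 3 endosperm and seed coat markers summed to 31820 to 48070 and 79300 to 89840 CPM, with up to 1 of them at 0 in a library. Of these 3, 2 were tested and 1 was called higher, with a median log2 difference of 0.15, so the sum does not stand for each marker. The part of these markers in the difference was not tested. As a share of all counts the pair held 0.549 ± 0.020% in mature Col-0 seeds and 0.567 ± 0.021% in those labelled ros1-4.

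The TIPs of vegetative vacuoles did the reverse of the TIP3 pair and came up from almost no transcript in dry seeds. TIP1-1 (AT2G36830) and TIP1-2 (AT3G26520), the abundant water channels of the tonoplast in growing tissue, had at most 12 counts in any mature library. TIP1-2 stood at 19.6, 17.9 and 59.4 CPM in Col-0 at stage II and at 145, 126 and 130 CPM in the ros1-4-labelled libraries. At stage IV it reached 231, 449 and 490 CPM in Col-0 and 531, 417 and 351 CPM in those labelled ros1-4. The genotypes were apart at stage II and overlapped at stage IV. TIP1-1 followed at 25.6, 24.8 and 42.5 CPM against 65.9, 78.0 and 72.4 CPM at stage II. At stage IV TIP1-1 stood at 155, 250 and 228 CPM in Col-0 and at 257, 208 and 176 CPM in the ros1-4-labelled libraries, again with overlap. Per kb, TIP1-2 came next after PIP2-1 in Col-0 at stage IV, with 312 ± 111 CPM per kb against 357 ± 22.1, and TIP1-1 followed with 194 ± 45.7, so that neighbours in this order overlapped in their ranges.

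TIP2-1 (AT3G16240) and TIP4-1 (AT2G25810), TIPs of the root and shoot tonoplast, showed the same course at lower levels. TIP2-1 stood at 2.27, 1.91 and 7.54 CPM in Col-0 at stage II and at 20.8, 21.1 and 20.3 CPM in the ros1-4-labelled libraries, and TIP4-1 at 5.89, 7.03 and 12.7 CPM against 19.1, 25.8 and 23.5 CPM. At stage IV TIP2-1 stood at 30.2, 65.8 and 64.5 CPM in Col-0 and 69.0, 63.3 and 47.8 CPM in the ros1-4-labelled libraries, and TIP4-1 at 48.6, 57.7 and 47.9 CPM against 61.2, 52.9 and 46.9 CPM. In each case the third Col-0 library was the highest of its group at stage II and still lay below every library labelled ros1-4. TIP4-1 had 0 counts in all mature Col-0 libraries and rose at least 35.4-fold by stage II against a floor of 3 counts per library. TIP2-1 had 4 counts in the mature Col-0 libraries together and rose 36.7-fold by pooled counts (95% interval 14.2 to 136, which covers counting error only, as do all such intervals). The fitted log2 change of TIP2-1, 5.11, became 4.203 without the third Col-0 library at stage II and 6.39 without the first mature Col-0 library. TIP2-1 overlaps AT3G16250 on the opposite strand, which had between 0 and 502 counts per library. TIP2-2 (AT4G17340) remained rare, at 5, 8 and 9 counts in Col-0 at stage II and 43, 31 and 34 in the ros1-4-labelled libraries, and at 40, 26 and 62 against 151, 103 and 118 counts at stage IV.

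**Figure D3:**
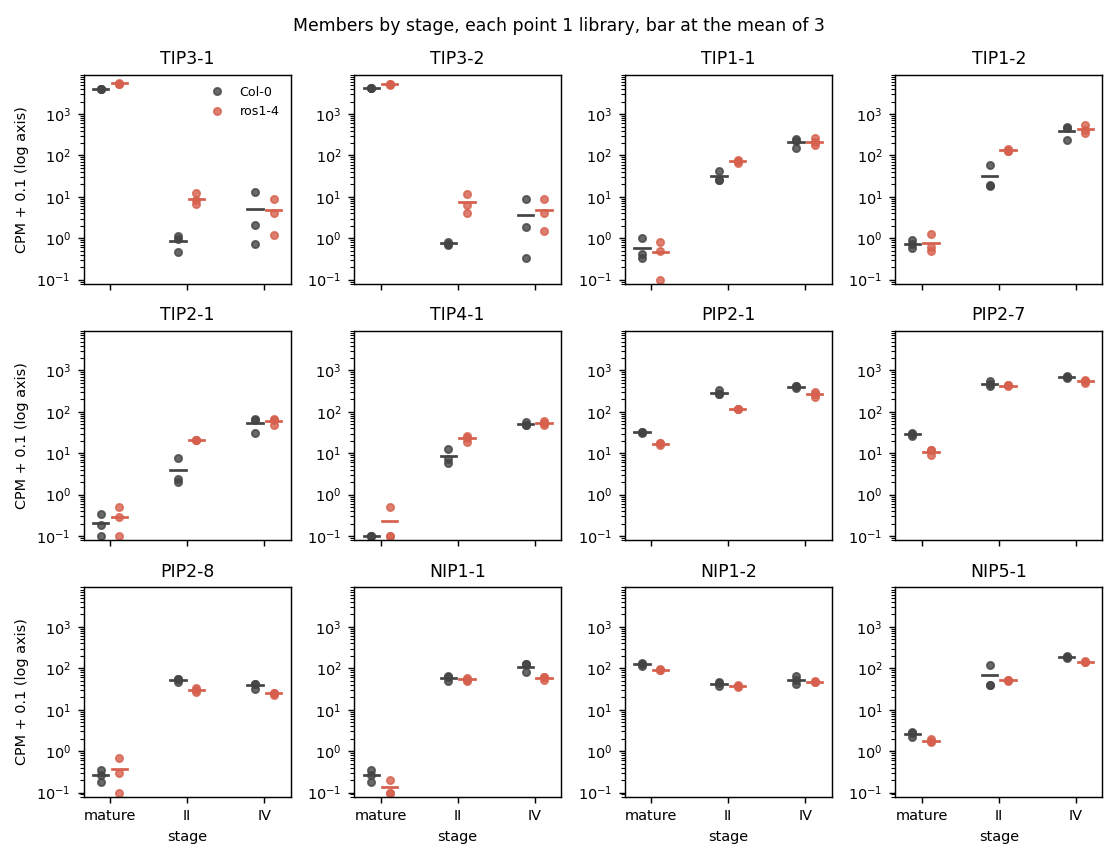
Level of selected TIP, PIP and NIP genes at each stage as CPM + 0.1 on a log axis, where each point is 1 library, grey for Col-0 and red for ros1-4, and the bar is the mean of 3. The TIP3 pair drops from 3941 CPM or more, TIP1-1, TIP1-2, TIP2-1 and TIP4-1 climb and differ between genotypes at stage II but meet at stage IV, and PIP2-1 is lower in the ros1-4-labelled libraries at every stage.

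All 7 tested TIPs were higher in the ros1-4-labelled libraries at stage II, where 22.6% of all genes tested were called, 11.4% up. TIP2-2 had at most 10 counts in every Col-0 library of that stage. It passed the filter on low counts through the ros1-4-labelled group, which largely set its direction. The log2 differences were 1.22 ± 0.19 for TIP1-1 (edgeR adjusted p = 0.00406), 2.05 ± 0.42 for TIP1-2 (adjusted p = 0.011), 2.40 ± 0.41 for TIP2-1 (adjusted p = 0.00527), 2.10 ± 0.30 for TIP2-2 (adjusted p = 0.00261) and 1.42 ± 0.26 for TIP4-1 (adjusted p = 0.00686), beside the TIP3 pair above. Without the third Col-0 library they grew to 1.51, 2.84, 3.30, 2.26 and 1.82. At stage IV only TIP2-2 was called, at 1.43 ± 0.31 (edgeR adjusted p = 0.0301), and the other 6 had adjusted p-values of 0.730 to 0.955. TIP2-2 kept that call without Col-0 replicate 3 and lost it without any other library of the comparison, with adjusted p-values of 0.0509 to 0.0824. Root hair markers moved with these genes at stage II: RHD6, EXPA7, XTH14, XTH12 and EXT13 summed to 14.6 to 26.0 CPM in Col-0 and 123 to 162 CPM in the ros1-4-labelled libraries, with 4 of the 5 called higher. At stage IV the sums were 134 to 423 and 465 to 834 CPM and still apart, unlike most TIPs, with 0 of the 5 markers called. In Col-0 at stage II up to 2 of the 5 markers were at 0, in the other germinating libraries none was, and their part in the TIP differences was not tested.

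The rise of these TIPs from stage II to IV was larger in Col-0. It was 2.76 ± 0.27 in Col-0 and 1.52 ± 0.12 in the ros1-4-labelled libraries for TIP1-1, 3.76 ± 0.54 and 1.49 ± 0.12 for TIP2-1, and 2.58 ± 0.27 and 1.19 ± 0.12 for TIP4-1, on the log2 scale. The interaction was -1.22 ± 0.30 for TIP1-1 (edgeR adjusted p = 0.0489), -2.25 ± 0.54 for TIP2-1 (adjusted p = 0.045) and -1.37 ± 0.30 for TIP4-1 (adjusted p = 0.0325). TIP1-2, which rose by 3.59 ± 0.54 and 1.65 ± 0.13, was at -1.92 ± 0.55 (edgeR adjusted p = 0.0754) and was not called. Without the third Col-0 library at stage II the Col-0 rise was 3.06 for TIP1-1, 4.67 for TIP2-1, 2.99 for TIP4-1 and 4.38 for TIP1-2, and the interactions were -1.54, -3.18, -1.80 and -2.73, the last now called (edgeR adjusted p = 0.000531). Of 28 tested members 1 was called up and 3 down in this interaction, against 3.46% of all genes, 1.06% up and 2.4% down. None of the 4 held in every one of the 12 fits that left out a library. The count was 0 without replicate 1 or 2 of Col-0 at stage II, replicate 2 of Col-0 at stage IV, any library labelled ros1-4 at stage II or replicate 2 labelled ros1-4 at stage IV. It was 1 without replicate 3 of either genotype at stage IV, 2 without replicate 1 labelled ros1-4 at stage IV, 8 without replicate 1 of Col-0 at stage IV, and 11 without the third Col-0 library at stage II.

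TIP1-3 (AT4G01470), TIP2-3 (AT5G47450) and TIP5-1 (AT3G47440) had at most 7 counts in any library. TIP1-3 and TIP5-1 are known from pollen. For TIP5-1 the mature Col-0 libraries had 6, 6 and 0 counts against 2, 2 and 7 in those labelled ros1-4, and 1 count in the 12 germinating libraries together. It overlaps AT3G47450 on the opposite strand, which had at least 97 counts in every library, so these few counts cannot be assigned.

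PIP2-7 (AT4G35100) and PIP1-2 led the family per kb at both germination stages, with PIP2-7 first in all 4 groups. PIP2-7, a water channel of the plasma membrane, stood at 31.5, 26.2 and 28.5 CPM in mature Col-0 seeds, 420, 459 and 552 CPM at stage II and 656, 698 and 721 CPM at stage IV. In the ros1-4-labelled libraries it stood at 9.24, 11.7 and 11.6 CPM, 419, 438 and 442 CPM, and 584, 563 and 490 CPM. The genotypes were apart in mature seeds, overlapped at stage II and were apart again at stage IV. The rise to stage II was 4.05 ± 0.13 in Col-0 and 5.30 ± 0.09 in the ros1-4-labelled libraries on the log2 scale, with an interaction of 1.23 ± 0.16 (edgeR adjusted p = 0.000114). The mature difference behind it was -1.38 ± 0.12 (edgeR adjusted p = 8.19e-07), and the difference at stage II was -0.14 ± 0.09 (adjusted p = 0.316).

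PIP1-2 was the PIP stored in dry seeds and its scaled level changed little by stage II. It stood at 386, 381 and 373 CPM in mature Col-0 seeds, 374, 393 and 433 CPM at stage II and 594, 653 and 537 CPM at stage IV. The ros1-4-labelled libraries stood at 340, 401 and 393 CPM, 312, 303 and 313 CPM, and 494, 442 and 367 CPM. The mature groups overlapped between genotypes, and at stages II and IV every library labelled ros1-4 was below every Col-0 library. The log2 differences at these 3 stages were 0.01 ± 0.07 (edgeR adjusted p = 0.936), -0.37 ± 0.06 (adjusted p = 0.00431) and -0.45 ± 0.11 (adjusted p = 0.0494), the last called in 1 of the 6 fits that left out a library. The change from mature seeds to stage II was 0.07 ± 0.08 in Col-0 (edgeR adjusted p = 0.436) and -0.30 ± 0.07 in the ros1-4-labelled libraries (adjusted p = 0.000976). With library size alone these became 1.04 and 1.06, so that the direction for this gene depends on the scaling.

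The other PIP1 genes took different courses. PIP1-3 (AT1G01620) stood at 19.3, 14.3 and 18.1 CPM in mature Col-0 seeds, 94.5, 100.4 and 135 CPM at stage II, and 176, 188 and 175 CPM at stage IV. In the ros1-4-labelled libraries it stood at 10.8, 7.78 and 9.37 CPM, 106, 94.2 and 93.4 CPM, and 143, 142 and 126 CPM. It was lower in the ros1-4-labelled libraries in mature seeds by -0.87 ± 0.15 on the log2 scale (edgeR adjusted p = 0.000497), without overlap, while the stage II groups overlapped. PIP1-1 (AT3G61430) ranged over 14.9 to 16.9, 14.1 to 18.6 and 46.0 to 73.7 CPM in the 3 stages of Col-0. It stood at 11.1 to 16.3, 20.2 to 23.2 and 39.5 to 56.7 CPM in the ros1-4-labelled libraries. PIP1-1 thus rose in Col-0 only after stage II, by 1.91 ± 0.19 on the log2 scale (edgeR adjusted p = 0.00111), after a change of -0.03 ± 0.13 before it (adjusted p = 0.831), which became 0.94 with library size alone.

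PIP1-4 (AT4G00430) was lower in the ros1-4-labelled libraries at all 3 stages. It stood at 52.5, 46.4 and 52.2 CPM in mature Col-0 seeds against 29.8, 30.2 and 26.6 CPM, at 50.1, 50.2 and 44.8 against 37.7, 32.8 and 37.5 CPM at stage II, and at 55.9, 63.5 and 62.6 against 39.4, 43.4 and 37.1 CPM at stage IV. The groups overlapped at no stage. In order of stage the log2 differences were -0.78 ± 0.09 (edgeR adjusted p = 1.51e-05), -0.43 ± 0.08 (adjusted p = 0.0071) and -0.60 ± 0.08 (adjusted p = 0.00806). At stage IV it was the member that kept its call in all 6 fits that left out a library. PIP1-5 (AT4G23400), a rare PIP1, fell from 5.64 ± 0.28 to 2.65 ± 0.53 CPM by stage II in Col-0 and from 6.06 ± 0.73 to 2.92 ± 0.46 CPM in the ros1-4-labelled libraries, with log2 changes of -1.09 and -1.06. With library size alone these were -0.12 (edgeR adjusted p = 0.571) and 0.30 (adjusted p = 0.143), so the fall depends on the scaling in both genotypes.

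PIP2-1 (AT3G53420), a well-studied root and leaf water channel whose cycling from the plasma membrane is regulated, was lower in the ros1-4-labelled libraries at all 3 stages, as PIP1-4 was. It stood at 30.8, 32.3 and 31.9 CPM in mature Col-0 seeds and at 17.2, 17.4 and 16.1 CPM in those labelled ros1-4. At stage II it stood at 267, 276 and 330 CPM against 120, 117 and 116 CPM, and at stage IV at 422, 416 and 376 CPM against 306, 268 and 227 CPM. Every library labelled ros1-4 was below every Col-0 library of its stage. The log2 differences were -0.89 ± 0.10 (edgeR adjusted p = 9.27e-06), -1.31 ± 0.08 (adjusted p = 8.49e-05) and -0.60 ± 0.11 (adjusted p = 0.0175), the last lost in 2 of the 6 fits that left out a library. The rise from mature seeds to stage II was 3.20 ± 0.10 in Col-0 and 2.79 ± 0.07 in the ros1-4-labelled libraries, with an interaction of -0.43 ± 0.12 (edgeR adjusted p = 0.022) that was -0.022 with library size alone (adjusted p = 0.934). The following rise was 0.47 ± 0.10 and 1.13 ± 0.09, with an interaction of 0.68 ± 0.14 (edgeR adjusted p = 0.0292). This last call was lost in 9 of the 12 fits that left out a library and with a replicate block (edgeR adjusted p = 0.0607). The interaction of the first step was lost in 3 of 12 such fits.

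PIP2-8 (AT2G16850), close in sequence to PIP2-7 with 84.0% of aligned coding bases the same, was, among the members at 1 CPM or more, the one with its highest mean at stage II in both genotypes. Counts were 2, 1 and 3 in the mature Col-0 libraries and 2, 0 and 6 in those labelled ros1-4. At stage II it stood at 55.8, 54.1 and 47.4 CPM in Col-0 and 26.9, 32.5 and 29.4 CPM in the ros1-4-labelled libraries, and at stage IV at 41.3, 31.9 and 42.8 CPM against 22.3, 25.9 and 25.8 CPM. The Col-0 rise was 327-fold by pooled counts (95% interval 150 to 890). Its fall from stage II to IV was -0.44 ± 0.12 in Col-0 (edgeR adjusted p = 0.027) and -0.31 ± 0.09 in the ros1-4-labelled libraries (adjusted p = 0.019), on the log2 scale, and each call held in 3 of the 6 fits that left out a library. The libraries labelled ros1-4 were lower at stages II and IV, by -0.82 ± 0.09 (edgeR adjusted p = 0.00084) and -0.64 ± 0.13 (adjusted p = 0.0239), with no overlap, the latter lost in 3 of the 6 such fits.

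The remaining PIP2 genes were of lower abundance. PIP2-2 (AT2G37170) and PIP2-3 (AT2G37180) share 94.8% of their coding bases, and 19.6% and 21.7% of their windows of 50 bases, the read length, occur in another gene, so the division of reads between them is uncertain. Over the 3 stages of Col-0 the mean level of PIP2-2 was 2.64 ± 0.74, 19.5 ± 1.1 and 36.4 ± 3.2 CPM, and that of PIP2-3 was 0.909 ± 0.20, 1.78 ± 0.35 and 5.38 ± 1.1 CPM. Summed, the pair stood at 3.55 ± 0.86, 21.3 ± 1.5 and 41.8 ± 3.7 CPM in Col-0 and at 3.55 ± 0.54, 15.2 ± 1.3 and 38.7 ± 6.6 CPM in the ros1-4-labelled libraries. PIP2-5 (AT3G54820) was a stored transcript that fell, from 19.1 ± 1.5 to 10.2 ± 1.7 CPM in Col-0 and from 15.9 ± 2.0 to 10.4 ± 1.2 CPM in the ros1-4-labelled libraries by stage II, and stood at 10.6 ± 1.2 and 11 ± 1.4 CPM at stage IV. With library size alone the fall of PIP2-5 became 0.06 in Col-0 and 0.73 in the ros1-4-labelled libraries on the log2 scale, so its direction depends on the scaling. PIP2-4 (AT5G60660), known from roots, had 0 counts in all 6 mature libraries. It had 6, 3 and 10 counts in Col-0 against 77, 66 and 85 in the ros1-4-labelled libraries at stage II, and 32, 45 and 80 against 293, 201 and 168 at stage IV. PIP2-4 was higher in the ros1-4-labelled libraries at stages II and IV, by 3.38 ± 0.32 (edgeR adjusted p = 0.000418) and 1.96 ± 0.34 (adjusted p = 0.016) on the log2 scale, the direction opposite to PIP2-1. At stage II PIP2-4 passed the filter on low counts through the ros1-4-labelled group, which largely set its direction there. The summed root hair markers given above were higher at both stages too, with 0 of the 5 called at stage IV. PIP2-6 (AT2G39010) had at most 73 counts in any library and rose from stage II to IV in both genotypes. In Col-0 this rise was 1.96 on the log2 scale (edgeR adjusted p = 0.0205), a call lost in 3 of the 6 fits that left out a library. From mature seeds to stage II it was not tested in Col-0 and rose in the ros1-4-labelled libraries. There it had at most 10 counts in every mature library and passed the filter through stage II, which largely set its direction.

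Among the NIPs a stored and an induced gene of the same subgroup changed places. NIP1-2 (AT4G18910) stood at 116, 124 and 135 CPM in mature Col-0 seeds and 92.4, 88.4 and 97.7 CPM in those labelled ros1-4, and came next after PIP1-2 per kb in both. At stage II it stood at 36.4, 47.2 and 43.5 CPM against 35, 38.6 and 36.7 CPM, and at stage IV at 42.2, 63.4 and 53.2 against 46.8, 49.5 and 45.8 CPM. It fell by 1.56 ± 0.10 in Col-0 (edgeR adjusted p = 3.16e-07) and fell by 1.35 ± 0.07 in the ros1-4-labelled libraries (adjusted p = 7.8e-11) on the log2 scale by stage II, the latter becoming 0.01 with library size alone. In mature seeds it was lower in the ros1-4-labelled libraries by -0.41 ± 0.07 (edgeR adjusted p = 0.000629). NIP1-1 (AT4G19030), with 84.0% of aligned coding bases the same as NIP1-2, was near the floor in mature seeds, at 1, 2 and 3 counts in Col-0 against 0, 0 and 1 in those labelled ros1-4. At stage II it stood at 61.4, 48.9 and 65.5 CPM against 58.6, 49.5 and 53.0 CPM, with overlap. At stage IV it stood at 80.3, 124 and 125 CPM in Col-0 and at 60.8, 52.5 and 60.0 CPM in the ros1-4-labelled libraries. The groups did not overlap then, with a log2 difference of -0.92 ± 0.16 (edgeR adjusted p = 0.0176) that was called in 3 of the 6 fits that left out a library. The rise of NIP1-1 to stage II was 366-fold by pooled counts in Col-0 (95% interval 168 to 997).

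NIP5-1 (AT4G10380), the boric acid channel of root uptake, rose at both steps in both genotypes. It stood at 2.78, 2.09 and 2.59 CPM in mature Col-0 seeds, 38.4, 39.9 and 123 CPM at stage II and 173, 202 and 188 CPM at stage IV. The corresponding ros1-4-labelled levels were 1.52, 1.63 and 1.87 CPM, 52.1, 48.7 and 51.9 CPM, and 151, 138 and 140 CPM. The third Col-0 library at stage II was about the triple of the others and decided the genotype comparison there. The Col-0 rise from stage II to IV, 1.48 ± 0.44 on the log2 scale (edgeR adjusted p = 0.0319), was 2.26 without that library (adjusted p = 3.16e-05) and lost its call without any other library of the comparison (adjusted p = 0.0553 to 0.0942). With it the log2 difference was -0.40 ± 0.41 (edgeR adjusted p = 0.522), and without it 0.38 (adjusted p = 0.000412), with every library labelled ros1-4 then above both of Col-0. At stage IV the difference was -0.38 ± 0.08 (edgeR adjusted p = 0.0239), and this call was lost in 4 of the 6 fits that left out a library (adjusted p = 0.0508 to 0.108) and in the fit of all 18 libraries (adjusted p = 0.398).

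NIP3-1 (AT1G31885), linked to arsenite uptake by roots, had at most 3 counts in any mature library and 0, 3 and 1 counts in Col-0 at stage II against 17, 22 and 13 in the ros1-4-labelled libraries. It reached 30, 49 and 80 counts in Col-0 against 150, 96 and 111 in the ros1-4-labelled libraries at stage IV. At stage II it was 11.5-fold higher in the ros1-4-labelled libraries by pooled counts (95% interval 4.23 to 43.8, edgeR adjusted p = 0.00762), where the fitted log2 difference was 3.41 and became 4.66 without Col-0 replicate 2. NIP3-1 passed the filter on low counts there through the ros1-4-labelled group, which largely set its direction. NIP2-1 (AT2G34390), a lactic acid channel of roots, had at most 127 counts and overlaps AT2G34380 on the opposite strand, which had at least 100 counts in every library. NIP4-1 (AT5G37810), NIP4-2 (AT5G37820), NIP6-1 (AT1G80760) and NIP7-1 (AT3G06100) had at most 2 counts in any library, and NIP4-2 had none.

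The SIPs, channels of the endoplasmic reticulum, rose by stage II in both genotypes, where 47.3% and 50.3% of all genes were called up. SIP1-1 (AT3G04090) stood at 33.1, 29.4 and 26.9 CPM in mature Col-0 seeds, 54.2, 53.4 and 64.6 CPM at stage II and 75.8, 80.4 and 76.2 CPM at stage IV. In those labelled ros1-4 it stood at 24.5, 28.8 and 28.8 CPM, 62.0, 57.5 and 55.5 CPM, and 71.5, 65.7 and 68.8 CPM. SIP1-1 rose by 0.94 ± 0.11 in Col-0 (edgeR adjusted p = 1.82e-05) and 1.08 ± 0.08 in the ros1-4-labelled libraries (adjusted p = 7.78e-09) on the log2 scale by stage II. SIP2-1 (AT3G56950) rose from 2.06 ± 0.38 to 15.1 ± 0.35 CPM in Col-0 and SIP1-2 (AT5G18290) from 0.402 ± 0.24 to 2.81 ± 0.22 CPM. SIP1-2 had at most 10 counts in every mature library of both genotypes. It passed the filter on low counts through stage II, which largely set its direction. SIP1-2 also overlaps AT5G18300 on the opposite strand, which had 0 to 41 counts per library. SIP2-1 overlaps AT3G56940 on the opposite strand, whose counts ranged from 11 to 11133, so the rise of SIP2-1 is uncertain where counting ignored strand. Between genotypes the SIPs had edgeR adjusted p-values of 0.133 to 0.913 over the 3 stages. In mature seeds SIP2-1 was called lower in the fit of all 18 libraries (edgeR adjusted p = 0.0373) and with library size alone (adjusted p = 0.0187), as was SIP1-1 with library size alone (adjusted p = 0.0061).

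Between genotypes in mature seeds, 16 members passed the filter, of which 2 were higher and 5 lower in the ros1-4-labelled libraries, against 26.8% of all genes called, 13.8% up and 13% down. The higher pair was TIP3-1 and TIP3-2, and the lower 5 were PIP1-3, PIP1-4, PIP2-1, PIP2-7 and NIP1-2, each called also without any 1 of the 6 libraries. With library size alone 0 were higher and 11 lower, as the median of all genes moved from -0.01 to -0.34. At stage II, 10 of 28 were higher and 6 lower, against 22.6% of all genes called, 11.4% up and 11.1% down: the 7 TIPs, PIP1-1, PIP2-4 and NIP3-1 were higher, and PIP1-2, PIP1-4, PIP2-1, PIP2-2, PIP2-3 and PIP2-8 lower. Of the higher genes TIP2-2, PIP2-4 and NIP3-1 had at most 10 counts in every Col-0 library and passed the filter on low counts through the ros1-4-labelled group, so their upward direction was largely set by the filter. The calls of PIP1-1 and PIP2-3 held in 1 and 2 of 6 fits that left out a library, and that of PIP2-3 was lost with the DESeq2 Wald test (adjusted p = 0.0704).

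**Figure D4:**
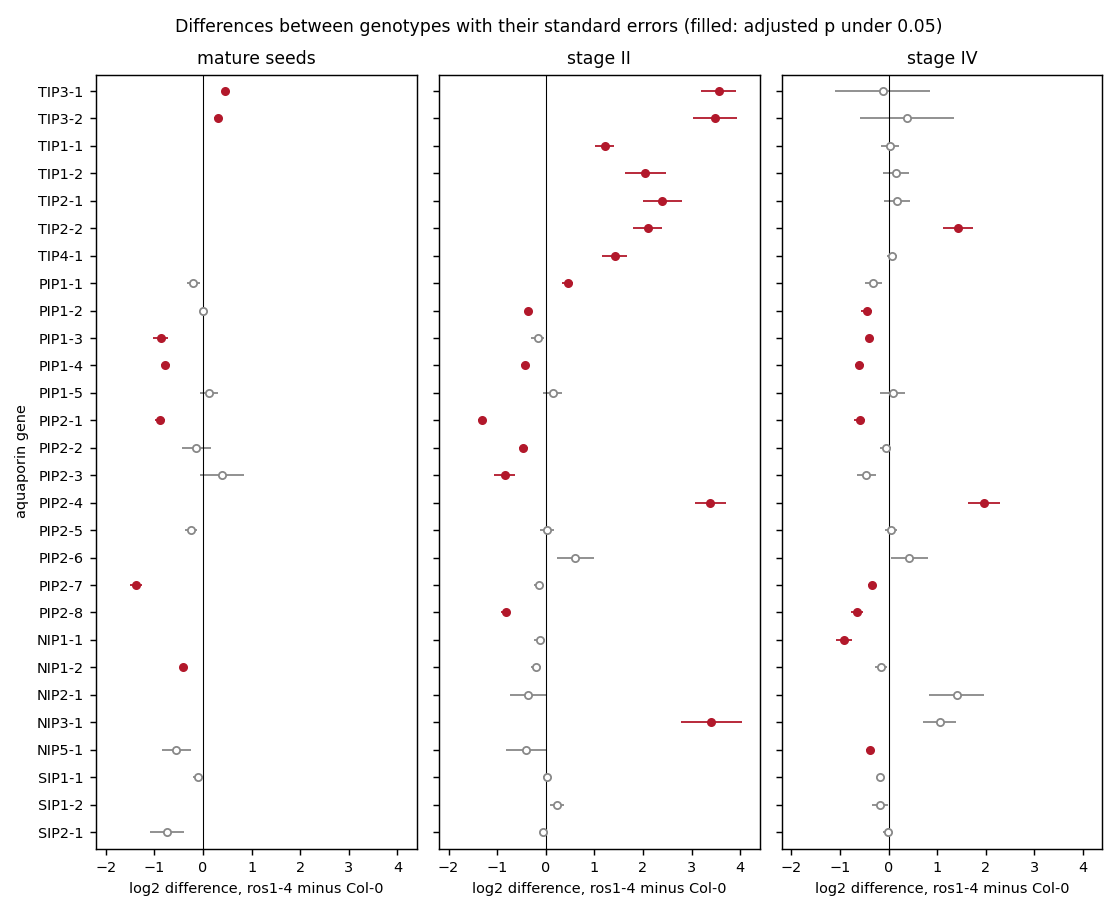
Log2 difference between libraries labelled ros1-4 and Col-0 for the members tested, in 1 panel per stage, as points with standard errors from edgeR, where filled red points passed an adjusted p-value of 0.05. At stage II the TIPs lie to the right of 0 and most called PIPs to the left, and at stage IV most TIPs are back at 0 while 8 members, mainly PIPs, lie to the left.

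At stage IV, 2 of 28 members were higher and 8 lower in the ros1-4-labelled libraries, against 8.22% of all genes called, 3.72% up and 4.5% down. TIP2-2 and PIP2-4 were higher, and PIP1-2, PIP1-3, PIP1-4, PIP2-1, PIP2-7, PIP2-8, NIP1-1 and NIP5-1 lower, with log2 differences of -0.92 to -0.34 among the lower genes. This count depended on single libraries: it was 1 without replicate 2 labelled ros1-4, 2 without Col-0 replicate 2, 3 without replicate 3 labelled ros1-4 and 6 without replicate 1 labelled ros1-4. Apart from PIP1-4, each of the called members lost its call in 2 to 5 of the 6 fits that left out a library. Under an adjusted p of 0.01 1 was called.

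The interaction of genotype with the step from mature seeds to stage II was called for 8 of 28 members, 6 up and 2 down, against 19.7% of all genes called, 10.4% up and 9.24% down. The interaction was positive for TIP3-1 and TIP3-2, which fell less in the ros1-4-labelled libraries, and for PIP1-1, PIP1-3, PIP2-7 and NIP3-1, and it was negative for PIP1-2 and PIP2-1. With library size alone 11 were up and 0 down, as the median of all genes moved from 0.05 to 0.45. The calls of TIP3-1, TIP3-2 and PIP2-7 held in all 12 fits that left out a library, and the number called was 4 without the first and 5 without the third mature Col-0 library. The other 5 calls were each lost in 2 to 9 of these fits.

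The vacuolar proton pumps, which energise the tonoplast in which TIPs lie, are given beside the vegetative TIPs. From mature seeds to stage II, 4 of 5 rose and none fell in each genotype, where 88.3% and 89.7% of all genes were called, with a median log2 change of 1.47 in Col-0 and 1.29 in the ros1-4-labelled libraries, against 0.17 and 0.33 for all genes. At stage II 0 of the 5 were higher and 2 lower in the ros1-4-labelled libraries, where 22.6% of all genes were called. The pyrophosphatase VHP1 rose by 1.55 ± 0.12 (edgeR adjusted p = 1.01e-06) and 1.74 ± 0.09 (adjusted p = 7.41e-11) on the log2 scale. Of 4 seed maturation regulators, ABI3, FUS3 and ABI5 fell in both genotypes over the same step and LEC1 was not tested. ABI3 fell by 0.96 ± 0.15 in Col-0 and fell by 1.85 ± 0.06 in the ros1-4-labelled libraries on the log2 scale, with an interaction of -0.92 ± 0.17 (edgeR adjusted p = 0.00192). FUS3 fell by 6.44 ± 0.24 and fell by 4.72 ± 0.24, with an interaction of 1.70 ± 0.48 (edgeR adjusted p = 0.0228). The sizes for these regulators depend on the scaling and are not given with library size alone. That scaling moved the median of all genes upward over this step, in Col-0 by about the size of the ABI3 fall.

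Genes that act on aquaporin traffic or modification, from a list of 8, moved in both directions. In Col-0, 3 rose and 3 fell from mature seeds to stage II, where 88.3% of all genes were called, with a median log2 change of 0.09 against 0.17 for all genes. In the ros1-4-labelled libraries 3 rose and 5 fell, where 89.7% of all genes were called, with a median of -0.48 against 0.33. The shares called thus lay near the background. TSPO, a membrane protein that takes PIP2-7 to degradation, fell by 6.30 ± 0.59 in Col-0 and fell by 8.54 ± 0.14 in the ros1-4-labelled libraries on the log2 scale over the same step. SYP121, a syntaxin that delivers PIPs to the plasma membrane, rose by 0.77 ± 0.12 and 0.95 ± 0.10, and OST1, a kinase that phosphorylates PIP2-1, by 3.55 ± 0.15 and 4.50 ± 0.16. RMA3, of the family of ubiquitin ligases that act on PIP2-1, fell by 3.35 ± 0.11 and fell by 3.58 ± 0.07. These genes are examples from the list, whose other members are given by counts only. Their part in the changes of the PIPs was not tested.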

How the data were processed

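RNA of whole seeds was sequenced in 18 libraries of 6 groups, with single-end reads of 50 bases. The authors quantified reads against the Araport11 transcripts with Salmon and deposited estimated counts per transcript. Here the 48268 transcripts were summed to 27587 genes and rounded. Totals were 18737837 to 20787603 counts per library, so a gene with 3 counts or fewer in each library lies at the floor of this depth. The table holds 57 transcripts of the 35 aquaporin genes. Groups came from the sample labels.

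Each pair of groups was tested with edgeR 4.0.16 (quasi-likelihood test, two-sided, TMM scaling, filterByExpr) in R 4.3.3 on its own 6 libraries, and interactions on 12, with Benjamini-Hochberg adjustment over all genes and calls at an adjusted p-value under 0.05. The study's methods name DESeq2, which was run (1.42.0) as an alternative beside other scalings, no filter, a fit of all libraries, a replicate block, other thresholds and leaving out each library. Nothing in the labels says that equal replicate numbers share a culture, and p-values measure the spread between these samples. The tests were also run on simulated counts in which most genes did not change. That setting cannot speak to the scaling between mature seeds and stage II, where most genes were called.

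All 35 members may be named, and those with a group mean of at least 50 CPM are described library by library. The members and gene lists were chosen with earlier results of these data known, and 3 of the root hair markers because they stood high in 1 library. Promoters are the 250 bases before each gene start in TAIR10.1, and transcript lengths are the deposited effective lengths. Sequences of proteins were not used here.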

Additional observations from a re-analysis of the deposited data

Results flagged for a closer look

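For 8 members the change from mature seeds to stage II differed between the genotypes by a test of the interaction itself, and for 4 members the change from stage II to IV did, as log2 differences of the ros1-4-labelled change minus that of Col-0 in the edgeR test. For the first step they were 3.08 for TIP3-1, 3.17 for TIP3-2, 1.23 for PIP2-7, 0.69 for PIP1-3, 0.64 for PIP1-1, -0.39 for PIP1-2, -0.43 for PIP2-1 and 7.76 for NIP3-1. NIP3-1 had 0 counts in all mature ros1-4-labelled libraries, so its fitted value depends on the prior count and is no bound, and it ranged from 7.11 to 8.90 on leaving out single Col-0 libraries. The call was lost without replicate 2 or replicate 3 of mature Col-0, at edgeR adjusted p-values of 0.058 and 0.096. For the second step they were -1.37 for TIP4-1, -1.22 for TIP1-1, -2.25 for TIP2-1 and 0.68 for PIP2-1. No test for single outlying libraries was run, as each group holds 3.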

How the results depend on the processing

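Of 3649 recomputed log2 changes of members, 3350 kept their direction and side of the threshold, 237 lost and 50 gained a call, and 12 reversed. Scaling by library size alone reversed most of these: in Col-0 from mature seeds to stage II it gave PIP1-1 0.94, PIP1-4 0.91 and PIP2-5 0.064, in the ros1-4-labelled libraries PIP1-2 1.06, PIP1-5 0.30, PIP2-3 1.08, PIP2-5 0.73 and NIP1-2 0.011, between mature genotypes TIP3-2 -0.031 and PIP1-2 -0.32, and in the interaction to stage II PIP1-2 0.014. It called 11 members between mature genotypes in place of 7, and gave family sums of 6484, 2100 and 3790 CPM per kb in Col-0 and 6549, 1964 and 3133 in the ros1-4-labelled libraries. The cause was not tested. Requiring an absolute log2 change of at least 1 left 11 members called from stage II to IV in Col-0, 1 between mature genotypes, 10 at stage II, 2 at stage IV and 4 in the interaction to stage II. An adjusted p under 0.01 left 1 at stage IV, 3 in the interaction to stage II and 0 in that to stage IV. The DESeq2 Wald test called 6 to 27 members per comparison, against 4 to 27 in the main test. The genotype difference of NIP5-1 at stage II ranged from -0.68 to 0.38 on leaving out each library, and the positive value came without Col-0 replicate 3. Leaving out each library gave 1 to 9 calls at stage IV, 4 to 10 in the interaction to stage II and 0 to 11 in that from stage II to IV.

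Same-numbered replicates correlated at -0.185 to 0.142 after removal of group means, so the numbers were not taken as pairs. With a replicate block 6 members were called at stage IV and 0 in the interaction from stage II to IV, and the counts of the other comparisons were 21, 21, 27, 23, 7, 15 and 8. Depth limits 7 members, which had 10 counts or fewer in every library and were not tested.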
